A study of Mus musculus with 8 samples.

Results

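The C/EBP family of mouse holds Cebpa, Cebpb, Cebpd, Cebpe and Cebpg, and chromatin accessibility around these 5 of 21911 annotated coding genes was examined in hepatocytes before and after partial hepatectomy (PHx), an operation that takes away a portion of the liver. The data are 8 bulk ATAC-Seq peak lists, in which Tn5 transposase marks open DNA, made from nuclei of hepatocytes that were isolated by collagenase perfusion from C57BL/6 mice aged 10 to 12 weeks on a normal diet. There were 2 libraries from undamaged liver (0 h) and 2 each at 48, 72 and 96 h after PHx, and the labels name no transgene or engineered allele in any group. All 3 later time points are compared with the same pair of 0 h libraries, no sham-operated group was analysed here, and surgery and time cannot be told apart. The study describes its bulk libraries as biological replicates, and for the earlier times more of them than were analysed here. The labels do not tie a library to a mouse, so a p-value measures only the spread between these libraries. For each gene, all intervals overlapping its body or the 50 kb on either side were taken and assigned to the nearest family gene. An interval that reached within 1 kb of a start site of the gene was called promoter, one that reached a start site of another gene was set apart, and the rest were called distal. The lists held 58 to 93 distinct intervals of this kind per library, out of 105206 to 154577.

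C/EBP proteins are basic leucine zipper (bZIP) transcription factors that bind DNA as dimers with each other or with relatives such as ATF4. In liver, C/EBPα maintains the metabolic program of the mature hepatocyte and restrains its division, whereas C/EBPβ and C/EBPδ respond to cytokines and drive acute-phase genes, and C/EBPβ is required for a full regenerative response. C/EBPε acts in the maturation of granulocytes, and C/EBPγ lacks a strong activation domain of its own and works mainly as a dimer partner. These roles are background, and accessibility does not measure the level of any of these RNAs or proteins.

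The genes lie on mm10 at chr7:35119293-35121928 (Cebpa, plus strand), chr2:167688915-167690418 (Cebpb, plus), chr16:15887286-15891031 (Cebpd, plus), chr14:54710360-54712174 (Cebpe, minus) and chr7:35046422-35056573 (Cebpg, minus). Cebpa and Cebpg are neighbours, 62719 bp apart, which is why each interval between them was given to the nearer gene. The RefSeq promoter sequences of 3 members were at hand, and their 250 bases before the start site are shown because these promoters lie at opposite ends of the family in fold enrichment, Cebpa and Cebpb low and Cebpg high. Capitals mark TATAAA in Cebpa, TGACGCA (a CRE-like site, as bound by CREB and ATF proteins) in Cebpb, and CCAAT, read on either strand, in Cebpg. 
Cebpa, chr7:35119043-35119292, plus strand: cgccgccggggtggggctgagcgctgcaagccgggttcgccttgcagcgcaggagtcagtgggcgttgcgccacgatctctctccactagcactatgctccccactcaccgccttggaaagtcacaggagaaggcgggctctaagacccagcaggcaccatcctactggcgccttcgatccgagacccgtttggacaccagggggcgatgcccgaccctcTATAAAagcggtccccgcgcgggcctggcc
Cebpb, chr2:167688665-167688914, plus strand: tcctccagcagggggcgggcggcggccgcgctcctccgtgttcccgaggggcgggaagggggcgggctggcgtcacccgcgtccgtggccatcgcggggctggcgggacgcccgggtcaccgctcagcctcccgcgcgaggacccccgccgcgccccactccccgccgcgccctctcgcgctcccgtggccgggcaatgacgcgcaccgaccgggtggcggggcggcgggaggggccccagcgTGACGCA
Cebpg, chr7:35056567-35056816, minus strand: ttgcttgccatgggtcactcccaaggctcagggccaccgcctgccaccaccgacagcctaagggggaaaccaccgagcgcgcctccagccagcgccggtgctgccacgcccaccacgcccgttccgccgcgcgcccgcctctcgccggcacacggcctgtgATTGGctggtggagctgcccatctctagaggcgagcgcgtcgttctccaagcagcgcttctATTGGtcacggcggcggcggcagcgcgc

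The TATA motif of Cebpa began at position -30 from the start site, and 13.6% of 32851 RefSeq promoters of the same length (GRCm38.p6, 250 bases before to 50 after the start) held one. Cebpb also held 1 in this window, at position 22, past the bases shown. The CRE-like match of Cebpb began at position -7 and such a match occurred in 2.12% of promoters. CCAAT occurred 2 times in the Cebpg window and was present in 37.4% of promoters. Over the full window the GC content was 67.3% for Cebpa, 80.7% for Cebpb and 71.7% for Cebpg, above 86.2%, 99.2% and 92.6% of promoters and against a median of 52.7%. Observed over expected CpG was 0.853, 1.03 and 0.988, and the median of all promoters was 0.384, below all 3 members. The C/EBP consensus TTGCNNAA, searched on both strands, had 0 matches in the 3 windows and was present in 10.8% of promoters.

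To compare libraries of unknown depth, the 50000 strongest intervals of each (ranked by −log10 p) were kept, and their merge gave 73710 consensus regions. The −log10 p of the last kept interval ranged from 8.05 to 15.2 and was lowest in both 48 h libraries and in 96 h replicate 2, and the part of this difference in the results was not tested. The list of 72 h replicate 2 lacks the sequencing run name that the other 7 lists share, and a run effect cannot be told apart from this library. Kept promoter regions were found for 8 of 10 hepatocyte markers at 0 h, 5 to 6 at 48 h, 3 to 4 at 72 h and 5 to 7 at 96 h. Alb, the albumin gene, was listed in both 0 h lists and in 1 list after PHx. Other markers did not follow Alb, as Hnf4a was kept in all 8 libraries and Apoa1 in 7. None of 8 Kupffer cell and none of 7 lymphocyte markers had a kept promoter in any library, endothelial markers had 0 of 8 at 0 h and 0 to 1 at each later time, stellate and portal fibroblast markers 3 of 8 up to 72 h and 2 to 3 at 96 h, and cholangiocyte markers 2 to 4 of 7 at 0 h, 3 at 48 h, 2 to 3 at 72 h and 3 at 96 h. Fewer cells with an open site and less opening per cell cannot be told apart in bulk libraries.

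Regions in the C/EBP windows numbered 53, of which 5 were promoter, 5 belonged to other genes' promoters and 43 were distal. Cebpb had 18 regions, Cebpa 14, and Cebpd, Cebpe and Cebpg 7 each. Of the 53, 22 (41.5%) were kept in all 8 libraries, beside 38.7% of all consensus regions, and 37 (69.8%) were listed in all 8 full lists, beside 74.8% of all regions. The maps of kept intervals by distance from each start site show this layout.

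**Figure D1:**
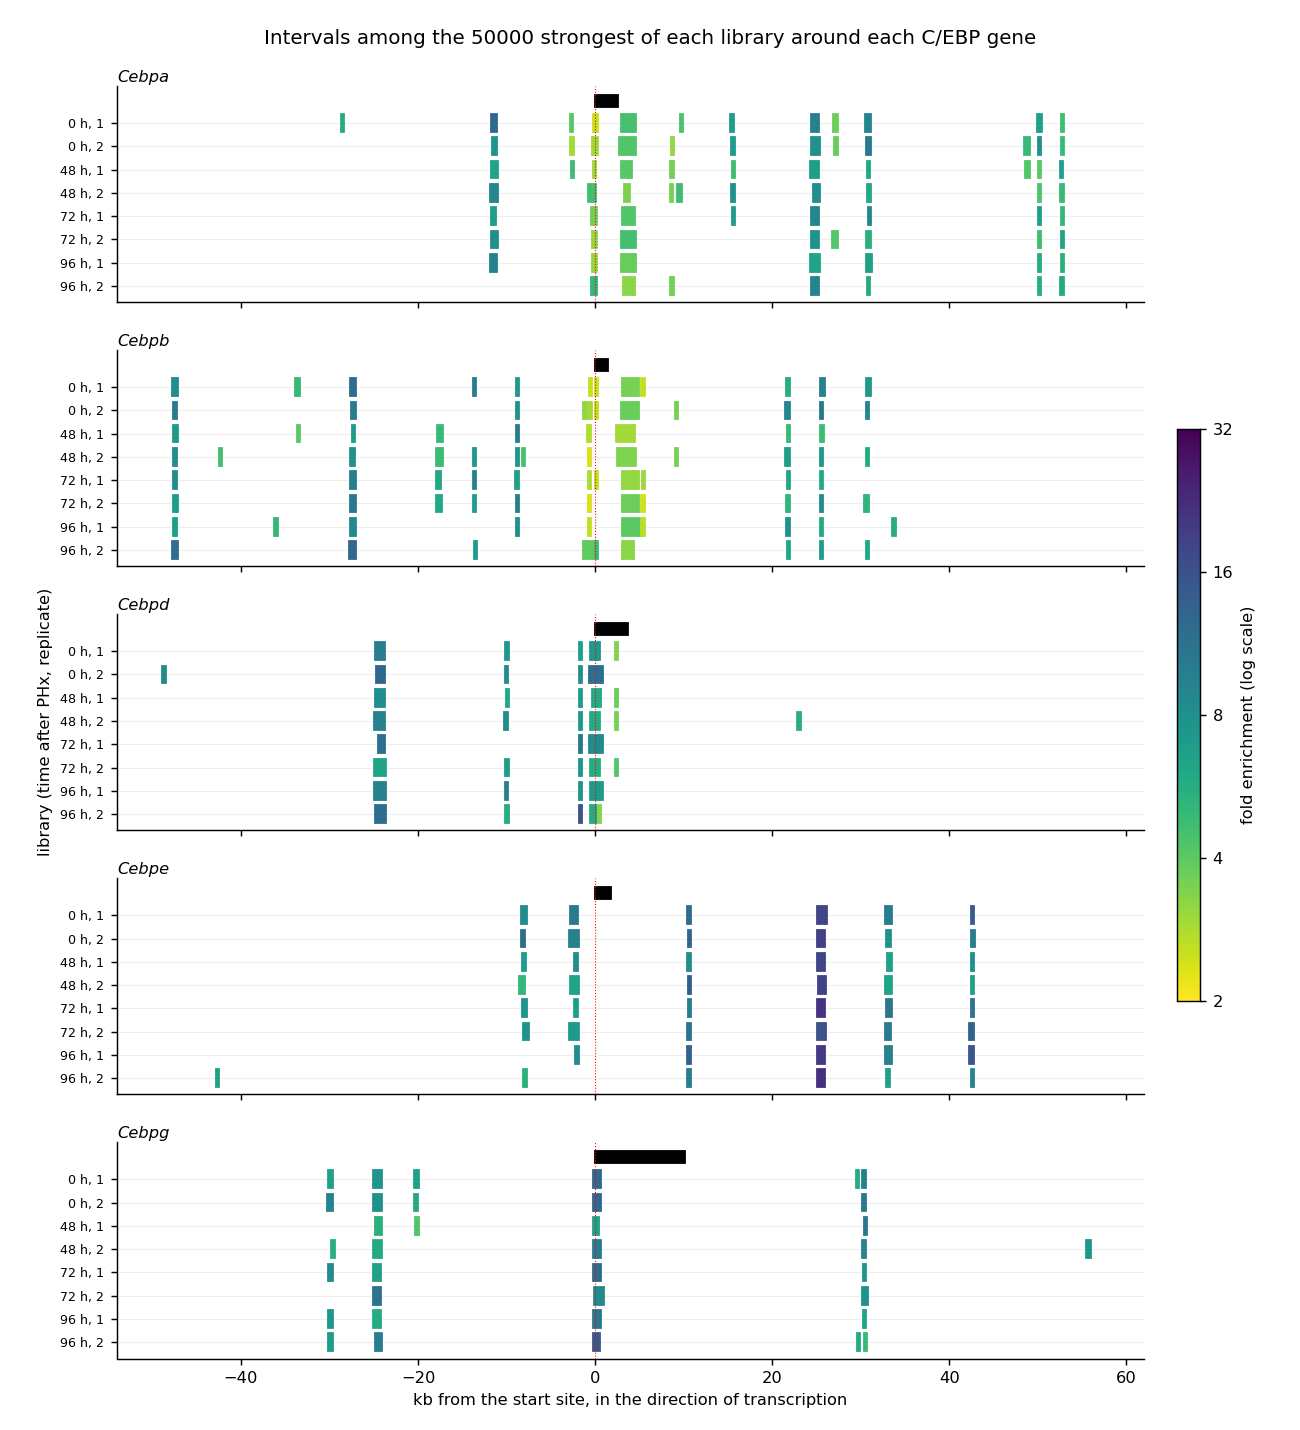
Each panel shows 1 gene, each row 1 library, and each bar a kept interval at its distance in kb from the start site (dotted line), coloured by fold enrichment over local background; the black bar is the gene body, and bars under 0.35 kb are drawn at that width. Cebpa shows a chain of distal intervals out to +52.7 kb with 11 at each 0 h library and 6 at each 96 h library, Cebpb is flanked on both sides, and Cebpe has no bar at its own start site.

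The promoters of Cebpa and Cebpb had a lower fold enrichment than those of Cebpd and Cebpg in all 8 libraries. At the Cebpa promoter, the fold enrichment over local background of the strongest interval was 2.56 and 2.99 (0 h), 3.04 and 4.62 (48 h), 3.65 and 3.16 (72 h), and 3.15 and 5.19 (96 h), replicate 1 first. All 6 PHx values were above both 0 h values on this deposited scale, but the groups overlapped after quantile normalization, where only 48 h remained above both 0 h libraries. At the Cebpb promoter the values were 2.52 and 3.16 (0 h), 2.78 and 2.40 (48 h), 2.85 and 2.40 (72 h), and 2.60 and 4.86 (96 h). The strongest Cebpb interval was not the same site in each library. Its summit lay at 156 bp from the start site in 0 h replicate 1 and at -1170 bp in replicate 2. It lay at 113 bp in 96 h replicate 2 and near -0.6 kb in the other libraries. The 96 h replicate 2 value stood above the other 7, and it was also the highest of the 8 at Cebpa. Cebpb had 2 promoter regions, and the one tested across libraries, at -0.6 kb, was that with the higher mean, at 2.56 and 3.16 in the 0 h libraries and 2.40 to 3.94 after PHx.

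The Cebpd promoter had values of 7.14 and 11.9 (0 h), 5.99 and 5.88 (48 h), 8.49 and 5.69 (72 h), and 7.03 and 5.89 (96 h). Every 48 h and 96 h value was lower than both 0 h values, and 72 h overlapped them, while after normalization this held for 96 h only. The Cebpg promoter had values of 12.6 and 12.9 (0 h), 6.58 and 10.2 (48 h), 12.0 and 8.53 (72 h), and 10.7 and 15.0 (96 h). Cebpe had no promoter interval in 7 of the 8 full lists, and the only one, in 96 h replicate 1, had a fold enrichment of 3.99 and rank 76387, below the 50000 kept. The gene of the granulocyte member was thus without a kept promoter region, and 12 granule and neutrophil genes had 1 kept promoter at 0 h, that of Elane (neutrophil elastase), and 0 after PHx.

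**Figure D2:**
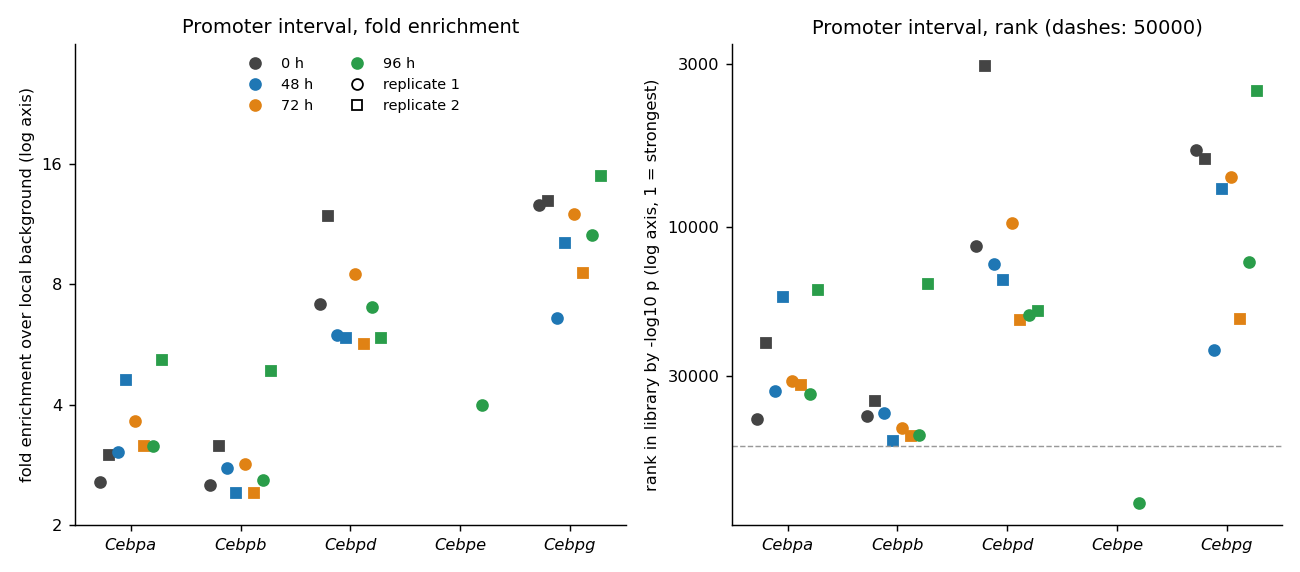
The left panel plots the fold enrichment of the strongest promoter interval of each gene (log axis) and the right panel its rank within the library by −log10 p (log axis, 1 at the top, dashes at 50000); colours are time points, circles replicate 1 and squares replicate 2. Cebpa and Cebpb sit between 2.40 and 5.19, Cebpd and Cebpg between 5.69 and 15.0, and Cebpe has 1 point, below the dashes in rank.

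The promoter intervals of Cebpa, Cebpb, Cebpd and Cebpg all had a lower fold enrichment than the median of intervals of like rank in each of the 8 libraries, to different degrees. The value was 29.2% to 54.0% of that median for Cebpa, 33.6% to 54.2% for Cebpb, 54.8% to 72.5% for Cebpd and 85.3% to 99.5% for Cebpg. The Cebpa and Cebpb intervals ranked from 15860 to 41236 and from 15217 to 48329, with −log10 p from 12.2 to 26.5 and from 9.18 to 27.2, whereas intervals at like ranks had a median fold enrichment from 5.63 to 10.3 for Cebpa and from 4.79 to 10.5 for Cebpb. Intervals covered 18.8% to 26.6% of the 5 kb on each side of the Cebpa start site and 26.8% to 30.2% at Cebpb, depending on the library. Intervals at start sites of other genes were counted too. At Cebpb these include that of A530013C23Rik, 3.018 to 5.015 kb from the Cebpb start site in 0 h replicate 1. The Cebpa share exceeded that of 98.8% to 99.9% of coding genes and the Cebpb share that of 99.8% to 99.97%, with a coding median of 6.94% to 9.10%. Cebpd was covered for 14.0% to 26.5%, above 92.6% to 99.8% of coding genes, Cebpg for 8.03% to 11.2%, above 52.7% to 64.8%, and Cebpe for 2.62% to 14.6%, above 31.7% to 87.1%. The fold enrichment is computed over local background, and its dependence on the width of the open stretch was not tested.

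No promoter of the family passed the test between 0 h and any later time. Quantile-normalized log2 fold enrichment was fitted with limma over all 73710 regions, and differences are given as log2 with the standard error (SE). For Cebpa the difference from 0 h was 0.81 (SE 0.50, adjusted p = 0.692) at 48 h, 0.06 at 72 h and 0.46 at 96 h, and 0.44 (SE 0.41, adjusted p = 0.868) for the mean of the 3 PHx times. For Cebpb it was 0.13 (SE 0.47) at 48 h, -0.47 at 72 h and 0.15 at 96 h, and -0.06 over PHx (SE 0.38, adjusted p = 0.986). For Cebpd it was -0.25, -0.37 and -0.39 (SE 0.33 each), and -0.34 over PHx (SE 0.27, adjusted p = 0.847). For Cebpg it was -0.21, -0.25 and 0.08 (SE 0.32 each), and -0.13 over PHx (SE 0.26, adjusted p = 0.953). The adjusted p of the differences at single times ranged from 0.692 to 1.0, and each difference was smaller than 2 SE.

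Across the windows, 0 of the 53 regions passed an adjusted p of 0.05 in the limma fit at 48, 72 or 96 h or over PHx, and the share called over all regions was 0% in each of these 4 comparisons. At an unadjusted p under 0.05 there were 0, 1, 2 and 0 of the 53, and 6199, 4732, 3909 and 5129 of all regions. The smallest adjusted p of a C/EBP region was 0.636 at 48 h, 0.665 at 72 h, 0.835 at 96 h and 0.748 over PHx. The 3 regions with an unadjusted p under 0.05 were Cebpa +49.0 kb at 72 h (log2 difference -0.98, SE 0.32), Cebpa +15.6 kb at 96 h (-1.27, SE 0.43) and Cebpg +30.5 kb at 96 h (-0.74, SE 0.24), all lower than at 0 h, the first of them named after its values were seen. Cebpa +15.6 kb had no interval in 96 h replicate 2, so that library entered at its list's lowest value, and without it the difference was -0.73 (SE 0.42).

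Counting regions whose libraries did not overlap gave more lower than higher regions at 72 and 96 h, as the map of region values shows. At 48 h both libraries were lower than both 0 h libraries in 7 of 53 regions (13.2%, beside 20.3% of all regions) and higher in 10 (18.9%, beside 20.2%). At 72 h they were lower in 14 (26.4%, beside 21.3%) and higher in 4 (7.55%, beside 18.3%). At 96 h they were lower in 13 (24.5%, beside 17.5%) and higher in 3 (5.66%, beside 15.5%). Over all 6 PHx libraries 2 were lower (3.77%, beside 4.76%) and 1 was higher (1.89%, beside 4.04%), near the background. On normal scores of the −log10 p, the 48 h split turned to 14 lower and 8 higher, beside 22.2% and 21% of all regions, and the PHx split became 6 lower and 1 higher, beside 5.69% and 4.82%. Cebpa contributed 6 of the 13 lower regions at 96 h (42.9% of its 14 regions), and Cebpb 5 of the 14 at 72 h (27.8% of its 18).

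**Figure D3:**
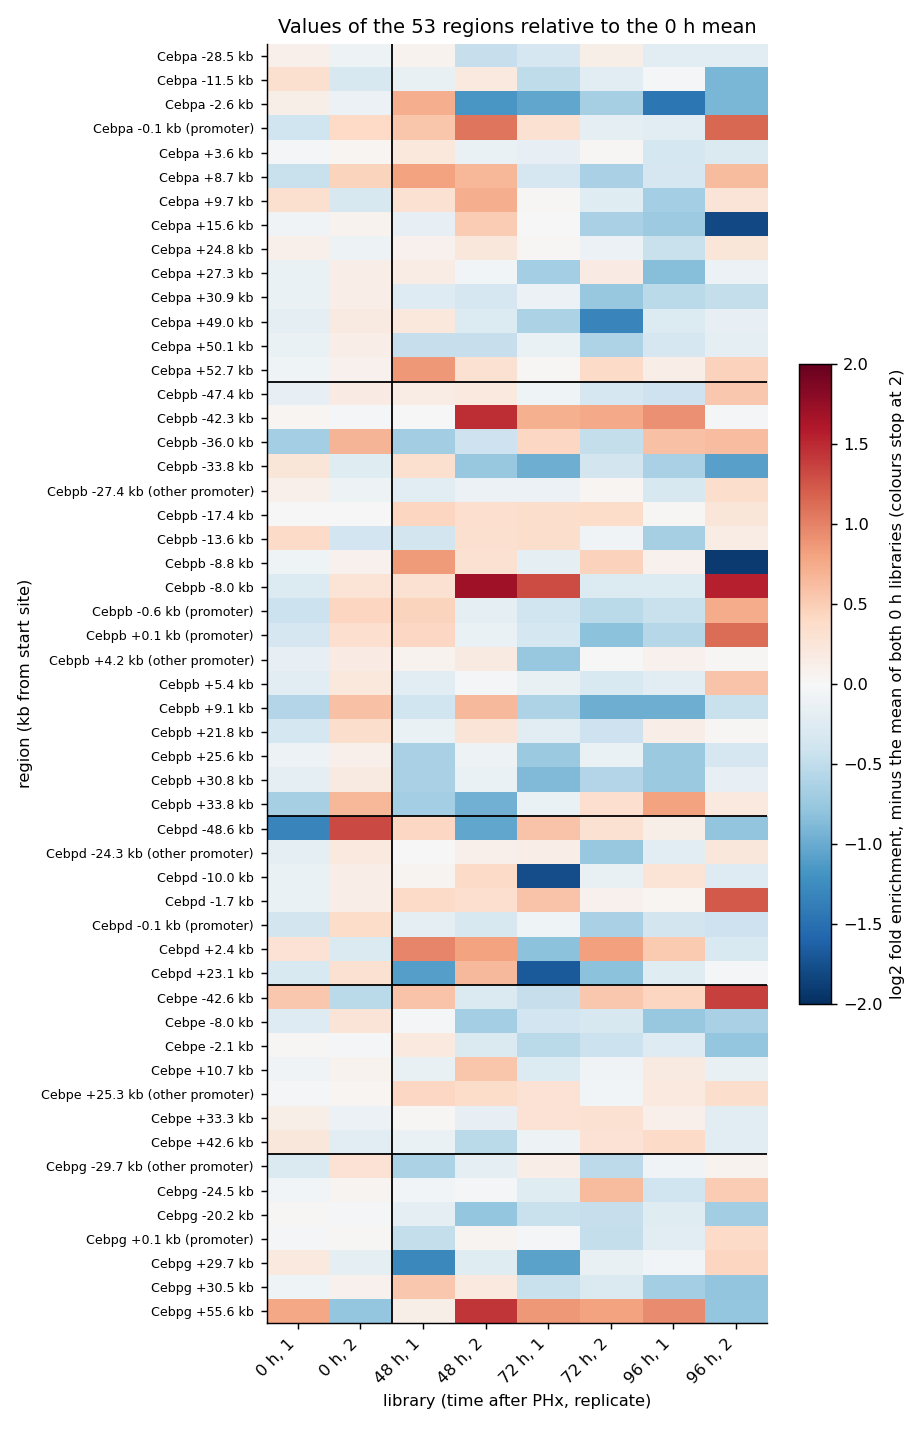
Rows are the 53 regions, by gene and by kb from the start site, columns are the 8 libraries, and colour is quantile-normalized log2 fold enrichment minus the mean of both 0 h libraries, with blue lower and red higher. Among Cebpa rows at 96 h, 6 of 14 regions were lower in both libraries than at 0 h (42.9%, beside 17.5% of all regions). In the other direction 1 was higher (7.14%, beside 15.5%).

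Distal intervals around Cebpa were fewer after PHx than at 0 h. The number among the 50000 strongest was 11 and 11 (0 h), 10 and 9 (48 h), 7 and 7 (72 h), and 6 and 6 (96 h). No PHx library reached the 0 h counts, and the means differed by -3.5 intervals (11 at 0 h and 7.5 over PHx). The two-sided exact permutation test over the 28 ways of choosing 2 of 8 libraries gave p = 0.0714, the smallest this design allows, and so could not pass 0.05. In 1.83% of coding gene windows all PHx libraries had fewer distal intervals than both 0 h libraries, and in 1.29% all had more. Among 837 windows with a mean of at least 10 at 0 h the shares were 7.41% and 2.03%. As these windows were chosen by their 0 h count, the choice itself favours a lower count later. Counting the whole Cebpa window without assignment to the nearest gene, the mean count differed by -33.3%, a difference that 21 (2.51%) of these windows matched or exceeded in the same direction, beside a median of -5.41%. The difference depended on the number of intervals and the width of the window, as it was -1.17 with 25000 intervals per library (exact p = 0.5), -1.5 with all deposited intervals (exact p = 0.643) and -1.83 within 20 kb (exact p = 0.429). Kept promoters of the 10 hepatocyte markers were also fewer after PHx (8 in each 0 h library, 3 to 7 later), and their part in this result was not tested.

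For none of the other 4 members were all PHx counts below both 0 h counts. Cebpb had 8 and 6 distal intervals at 0 h, 6 and 10 (48 h), 7 and 8 (72 h), and 7 and 5 (96 h), and the groups overlapped. Cebpd had 3 and 3, then 3 and 4, 1 and 3, and 2 and 2. Cebpe had 5 in every library but 96 h replicate 1, which had 4, and Cebpg had 4 and 3 (0 h) and 2 to 3 after PHx (exact permutation p = 0.286). Averaged over libraries, the Cebpa window was above 96.5% and the Cebpb window above 90.4% of coding genes in its number of distal intervals.

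**Figure D4:**
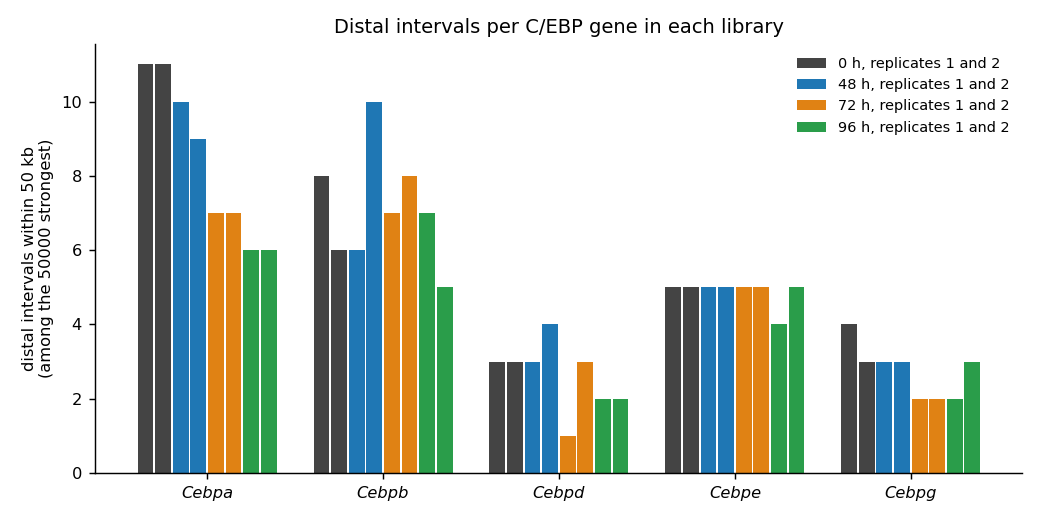
Bars give the number of distal intervals among the 50000 strongest in each library, for each gene, with 2 bars (replicates 1 and 2) per time point. For Cebpa the bars step from 11 and 11 (0 h) to 6 and 6 (96 h), and for Cebpe 7 of 8 bars are at 5.

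Of the regions around Cebpa, the strongest distal ones were at +24.8, -11.5 and +30.9 kb and lie between genes. The +24.8 kb region had a fold enrichment of 9.69 and 7.96 (0 h), 6.78 and 8.16 (48 h), 8.82 and 7.74 (72 h), and 6.39 and 9.17 (96 h), and its PHx difference was under 1 SE (SE 0.24). The +30.9 kb region had 9.03 and 10.5 (0 h), 6.00 and 6.10 (48 h), 8.79 and 5.51 (72 h), and 6.65 and 5.94 (96 h). All 6 deposited PHx values were below both 0 h values, and after normalization this held at 48 and 96 h, with a PHx difference of -0.41 (SE 0.23, adjusted p = 0.782). The -11.5 kb region had 12.6 and 7.60 (0 h) and 4.50 to 9.55 after PHx, and the groups overlapped. The widest region of Cebpa, 1881 bp at +3.6 kb, had 4.51 and 4.23 (0 h) and 3.24 to 4.60 after PHx.

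A region was called gained where both libraries of a later time kept it and no 0 h library did, and lost in the opposite case. At 48 h 1 C/EBP region was gained (2.65% of all regions were) and 2 were lost (3.5% of all), at 72 h 1 was gained (2.88%) and 2 were lost (2.74%), and at 96 h 0 were gained (2.23%) and 4 were lost (2.42%). The regions lost at 96 h were Cebpa -2.6 kb, +15.6 kb and +27.3 kb and Cebpg -20.2 kb. When absence from the full lists was required, 19 of all 73710 regions (0.0258%) were lost at 96 h and 1 of the C/EBP losses was left, Cebpa -2.6 kb. It was listed at 4.09 and 2.94 (0 h), 4.74 in 48 h replicate 1, and 2.24 and 3.14 (72 h), and not listed in 48 h replicate 2 or either 96 h library. Cebpa +15.6 kb, in a noncoding exon or UTR of Gm35665, had 6.81 and 7.09 (0 h), 4.71 and 7.91 (48 h), 6.90 and 4.4 (72 h), 4.22 in 96 h replicate 1 and no interval in replicate 2. Cebpa +27.3 kb was listed in all libraries at 2.87 to 4.22 and crossed rank 50000, from 43855 and 36803 (0 h) to 51392 and 58033 (48 h), 63663 and 43143 (72 h), and 72026 and 74271 (96 h). Its normalized 48 h difference was 0.047 (SE 0.37), above 0 h, and that at 96 h -0.48 (SE 0.37).

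Around Cebpb, 1 region was higher in every PHx library and another lower in every PHx library than at 0 h. The -17.4 kb region, in an intron of Tmem189, was the region gained at 48 and 72 h, with a fold enrichment of 4.83 and 4.4 (0 h), 4.93 and 4.85 (48 h), 6.09 and 6.03 (72 h), and 4.93 and 4.91 (96 h). Its PHx difference was 0.29 (SE 0.18, adjusted p = 0.804). The +25.6 kb region, in an intron of the long noncoding RNA A530013C23Rik, had 9.41 and 10.6 (0 h), 4.75 and 7.27 (48 h), 5.89 and 8.59 (72 h), and 5.97 and 6.75 (96 h), with a PHx difference of -0.45 (SE 0.26, adjusted p = 0.792). The other strong distal regions, at -47.4 and -8.8 kb, had PHx differences of under 1 SE, with SEs of 0.29 and 0.50. The -8.8 kb region had a 48 h difference of 0.57 (SE 0.61), its groups at 0 and 48 h not overlapping after normalization. On the deposited scale they overlapped, with 7.18 and 7.82 (0 h) and 9.86 and 7.44 (48 h). The region had no interval in 96 h replicate 2, which entered at its list's lowest value, with a 96 h difference of -0.91 (SE 0.61). The promoter region over the start site itself, at +0.1 kb, was lost at 48 h, where its rank was 58569 and 65622, against 40283 and 43469 (0 h). It was also past 50000 in 72 h replicate 2 (83963) and 96 h replicate 1 (59603) and ranked 15217 in 96 h replicate 2, and its normalized 48 h difference was 0.14 (SE 0.55), above 0 h. A 2708 bp region at +4.2 kb, at the start of A530013C23Rik, was kept in all 8 libraries at 2.95 to 4.03.

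The Cebpg -20.2 kb region, between genes, was the other region lower in all PHx libraries. It had 6.67 and 5.96 (0 h), 4.33 and 3.16 (48 h), 4.83 and 4.61 (72 h), and 5.52 and 3.40 (96 h), and its PHx difference was -0.47 (SE 0.24, adjusted p = 0.754). It was lost at 72 and 96 h. The Cebpg +30.5 kb region, in an intron of Pepd, had 9.76 and 10.6 (0 h), 10.6 and 9.11 (48 h), 7.38 and 7.84 (72 h), and 6.32 and 4.96 (96 h). The 48 h values overlapped those of 0 h on this deposited scale and were above them after normalization. The -24.5 kb region overlapped between groups, with a PHx difference of 0.07 (SE 0.32).

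Cebpd had a narrow region at -1.7 kb that was kept in all 8 libraries, with 6.76 and 7.82 (0 h), 6.96 and 7.32 (48 h), 10.6 and 7.46 (72 h), and 7.50 and 15.9 (96 h). Its highest value, in 96 h replicate 2, ranked 812 in that library, and the PHx difference was 0.44 (SE 0.33, adjusted p = 0.837). The -10.0 kb region had 7.40 and 8.44 (0 h) and 3.15 to 9.55 after PHx, and +23.1 kb, in an intron of Spidr, was listed in 6 libraries. The strongest region in the Cebpe window, at +25.3 kb, was the promoter of Acin1 and 1700123O20Rik, with a fold enrichment of 15.9 to 21.8 and ranks of 36 to 639. The strongest distal Cebpe region, at +10.7 kb, had 12.1 and 13.1 (0 h) and 8.05 to 14.2 after PHx. The +42.6 and +33.3 kb regions lie in Acin1, and their PHx differences were -0.05 (SE 0.27) and 0.06 (SE 0.20).

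The windows of the 3 regions in which all PHx libraries stood on 1 side of 0 h, and of the strongest distal Cebpa region, are printed as 200 bases around the summit, on the plus strand. Capitals mark matches to TGTTTAC (the forkhead site of FOXA), TTCNNNGAA (STAT) and TGANTCA (AP-1), and no match to these was found in the Cebpb +25.6 kb window. 
Cebpa +24.8 kb, chr7:35143966-35144165: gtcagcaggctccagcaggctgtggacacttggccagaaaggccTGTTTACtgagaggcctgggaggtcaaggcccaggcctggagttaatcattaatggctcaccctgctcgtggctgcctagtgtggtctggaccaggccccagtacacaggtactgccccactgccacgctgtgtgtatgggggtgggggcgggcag
Cebpb +25.6 kb, chr2:167714388-167714587: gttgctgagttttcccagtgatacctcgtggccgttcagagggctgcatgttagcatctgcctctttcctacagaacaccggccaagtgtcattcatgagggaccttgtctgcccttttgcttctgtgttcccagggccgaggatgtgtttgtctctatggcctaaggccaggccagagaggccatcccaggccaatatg
Cebpb -17.4 kb, chr2:167671370-167671569: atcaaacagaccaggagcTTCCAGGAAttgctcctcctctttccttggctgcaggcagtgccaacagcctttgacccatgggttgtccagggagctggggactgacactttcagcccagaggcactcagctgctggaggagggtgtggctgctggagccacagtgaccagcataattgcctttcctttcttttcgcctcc
Cebpg -20.2 kb, chr7:35076644-35076843: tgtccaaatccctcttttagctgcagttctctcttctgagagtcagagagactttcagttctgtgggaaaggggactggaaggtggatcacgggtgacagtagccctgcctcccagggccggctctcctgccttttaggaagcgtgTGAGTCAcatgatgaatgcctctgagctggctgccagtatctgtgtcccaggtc

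Within 200 bp around the summit, TGTTTAC was found in 9 of the 53 regions (17.0%), beside 4.93% of all 73710 regions, and 6 of the 9 were Cebpa regions. FOXA factors are regulators of hepatocyte gene expression, and a match says nothing of their binding here. The 6 matches at Cebpa are given with 10 bases on each side, read on the strand of the motif. 
Cebpa -2.6 kb: aaagcaggttTGTTTACctgggatggc
Cebpa +3.6 kb: cagtttttctTGTTTACagggaatgat
Cebpa +8.7 kb: aagcctggccTGTTTACctttcacaac
Cebpa +15.6 kb: tgtggatgttTGTTTACagaatgtggc
Cebpa +24.8 kb: cagaaaggccTGTTTACtgagaggcct
Cebpa +30.9 kb: agccctaccgTGTTTACccacagctac

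The C/EBP consensus itself was found in 6 of the 53 regions (11.3%), near the 13.2% of all regions, and in the 400 bp window in 11 (20.8%), beside 20.8%. The matches, in capitals, are listed because they are candidates for binding by the family at its own genes, which these data do not measure. 
Cebpa +8.7 kb: tgcatacgatTTGCATAAaaggaaactg
Cebpb +21.8 kb: gctggggtggTTGCGAAAgccctttctc
Cebpe +33.3 kb: aatgtgtactTTGCAGAAgcctcagctg
Cebpe -42.6 kb: gcggccgaggTTGCACAAgcaagcccaa
Cebpg +29.7 kb: ggccttgtgtTTGCAGAActctctcacc
Cebpg +55.6 kb: taggcctgagTTGCATAAtttttaattt

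AP-1 was matched in 5 regions (9.43%, beside 7.86%), STAT in 3 (5.66%, beside 5.49%), and the C/EBP-ATF composite TGATGCAA in 1, Cebpb -47.4 kb (1.89%, beside 1.09%). The GC box GGGCGG was matched in 12 regions (22.6%, beside 16.6%), 7 of them at Cebpb. No match was found at the CRE TGACGTCA, which 0.484% of all regions held.

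Among genes tied to the family, 0 promoters of any list passed the test at any time, and neither did any of the 13713 coding promoters. Promoters of 14 metabolic genes known as C/EBP targets were kept for 10 to 12 at 0 h, 4 to 5 at 48 h, 5 at 72 h and 7 to 9 at 96 h, and the median PHx difference was -0.41. Of these 14, Alb, Cyp2e1 and Fabp1 were kept in 0 h libraries only and so entered through the group where they were strong, and G6pc (0.16, SE 0.50) was kept in 96 h replicate 2 only. Over the 10 kept both at 0 h and after PHx the median was -0.31, beside -0.02 over all coding promoters, of which 0.649% were kept at 0 h only. Over all 21911 coding genes the share with a kept promoter was 56.4% to 57.0% at 0 h, 56.1% to 57.6% at 48 h, 56.2% to 56.9% at 72 h and 56.5% to 56.8% at 96 h. Alb had the largest PHx difference of this list, -1.07, but its promoter was among the kept intervals of 0 h replicate 1 only, and 5 of its 6 PHx values are the lowest value of the list, set where no interval was found. Its direction and its SE are therefore partly set by the filter and by that fill, and no test is drawn from it. Otc, of the urea cycle, had -0.63 (SE 0.34). Tat, tyrosine aminotransferase, had -0.61 (SE 0.30, adjusted p = 0.738). It had no interval in either 48 h library, so both entered at the lowest value of their list, which partly sets its difference and SE. This list and the hepatocyte markers share Alb, Tat, Cps1 and Cyp2e1. The median PHx difference of the hepatocyte markers was -0.11, and -0.099 over the 8 kept both at 0 h and after PHx.

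Of 18 acute-phase genes, 13 to 15 promoters were kept at 0 h, 12 to 13 at 48 h, 9 to 14 at 72 h and 10 to 13 at 96 h, and the median PHx difference was -0.22 over the 14 promoters kept both at 0 h and after PHx, with Fgb (-0.50, SE 0.33) kept at 0 h only and Saa3 (serum amyloid A3) kept after PHx only. Saa3 had 0.59 (SE 0.39), with both 48 h libraries above both 0 h libraries and no interval in 0 h replicate 2, and is named after its value was seen. Hpx (hemopexin), with -0.88 (SE 0.34, adjusted p = 0.687), Hp (haptoglobin), with -0.68 (SE 0.26, adjusted p = 0.687), and Fga (fibrinogen α), with -0.44 (SE 0.22) and named after its value was seen, were lower in all 6 PHx libraries. All PHx libraries were lower than both 0 h libraries in 4.27% of 13713 coding promoters and higher in 4.4%. All 21 regulators and partners of C/EBP proteins were kept in all 8 libraries, with a median of -0.06. Hdac1, a histone deacetylase, had -0.43 (SE 0.24) and Jak1, a kinase of cytokine receptors, -0.35 (SE 0.23), both with groups that overlapped over PHx. Both 48 h libraries were lower than both 0 h libraries in 5 of the 21, Hdac1 and Jak1 among them. They were higher in 3, beside 20.3% lower and 20.2% higher over all regions. Cdk2, a cell cycle kinase, was the 1 regulator lower in all PHx libraries (-0.20, SE 0.20), named after its value was seen. Among 11 bZIP relatives 9 to 10 promoters were kept at 0 h and 5 to 10 after PHx, with Atf3 at -0.49 (SE 0.47) and Hlf at -0.33 (SE 0.25). Atf3 had no interval in 72 h replicate 1 or 96 h replicate 1, which entered at the lowest value of their lists. Elane, the 1 granule gene with a region, had -1.28, and as its promoter was kept in the 0 h libraries only, it entered the fit through the group where it was strong. In the lists of other cells, Spp1, kept in 1 of the 0 h libraries only, had -1.04 (SE 0.40). Spp1 had no interval in either 48 h library or in 72 h replicate 1, which entered at the lowest value of their lists. Epcam had 0.27 (SE 0.26), Reln 0.33 (SE 0.24) and Eln 0.02 (SE 0.22). Kdr, kept in 72 h replicate 2 only, had 0.14 (SE 0.39) and Clec4g -0.09 (SE 0.20). The Clec4g region was kept in all 8 libraries, but its interval reached within 1 kb of the start site, as a kept promoter requires, only in 48 h replicate 2 and 96 h replicate 1.

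Coding promoters whose values followed a member most closely over the 8 libraries were Atxn7 (Pearson r = 0.983), Cdc123 and Nudt5 for Cebpa, Fam187b, Lsr and Sertad1 for Cebpb, Pfkl, Itgav and Mfsd14a for Cebpd, and Tnrc6b, Pelp1 and Nars for Cebpg. Cdc123 and Nudt5 share 1 region, as do Fam187b and Lsr, and the 8 values share library depth and quality. Of 13713 promoters, r was over 0.9 for 54 with Cebpa, 129 with Cebpb, 17 with Cebpd and 54 with Cebpg.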

How the data were processed

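Each library was placed in its time point by its labels. Per the study's methods, the authors ran the ENCODE ATAC-Seq pipeline, mapping reads to mm10 with Bowtie2, removing duplicates and calling peaks per library with MACS2. For each interval the authors deposited a display score (not used), a fold enrichment over local background (a ratio), a −log10 p, a −log10 q and a summit. The deposited −log10 p starts at 2.00, and the deposited lists hold no read counts, so depth is unknown and no interval for counting error was given.

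Lines with the same interval were collapsed to the highest −log10 p, and 50000 intervals per library were kept and merged at 1 bp overlap. A region took the log2 fold enrichment of its strongest interval in the full list, or the lowest value of that list where it had none. After quantile normalization the values were fitted by time point in limma 3.58.1 (R 4.3.3), with Benjamini-Hochberg adjustment over all 73710 regions. The fit was tested on simulated data with a known shift in all PHx libraries. That test covered only the comparison over PHx, and the share of shifts it recovered is not given here. Counts of intervals were compared by exact permutation (SciPy 1.17.1). Annotation was GENCODE M21, coding and long noncoding, and 0 intervals ended past a chromosome. Promoter sequences were from a RefSeq table (GRCm38.p6), in which 3 of the 5 members were matched, and other sequence from the same build. The read-count test that the study's methods describe needs counts and could not be run.

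The regions named are each promoter, the 3 distal regions per gene with the highest mean, and any region called, gained or lost, and for each list the 2 genes with the largest PHx difference. The members and lists were chosen with earlier results of these data known. Same-numbered replicates did not deviate together (correlations of -0.0554 to 0.12), so they share only a number. The alternatives tried were the scale, the normalization, the number of intervals, the windows and leaving out each library.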

Additional observations from a re-analysis of the deposited data

Results flagged for a closer look

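The Cebpg +30.5 kb region, in an intron of Pepd, lay on opposite sides of 0 h at different times. After quantile normalization, both 48 h libraries were above both 0 h libraries (log2 difference 0.37), and both 72 h and both 96 h libraries were below them (-0.36 and -0.74). The 48 h value thus exceeded the 72 h value by 0.73 and the 96 h value by 1.1 on the log2 scale. The difference between times was not tested, and none of the 3 differences from 0 h passed the limma test (adjusted p of 0.709, 0.868 and 0.835). The same pair of 0 h libraries stands behind all 3. On the deposited scale the 48 h values (10.6 and 9.11) overlapped those of 0 h (9.76 and 10.6), while the 72 h and 96 h values were below both.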

How the results depend on the processing

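Under the settings that used all 8 libraries, no C/EBP region was called in any comparison, and no list promoter over PHx. The fit called 0 of all regions in each of these settings as well. Of 224 alternative values of the 16 promoter differences, 203 kept their sign, leaving out the replicate block and the trended prior, which by construction leave a difference as it is. The 224 still include values without a library of another time, which enters a difference at a single time only indirectly. They are therefore not independent checks. Apart from values without 1 library, those that turned were Cebpb at 48 h (-0.12 on normal scores, -0.24 with all intervals), Cebpa at 72 h (-0.024 with 25000 intervals, -0.056 with q under 0.05), Cebpg at 96 h (-0.12 on normal scores) and Cebpb over PHx (0.11 with median centring, 0.042 with intervals in all 8 lists only). The cause was not tested.

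Leaving out each library in turn gave, at 48 h, -0.31 to 0.54 for Cebpb, -0.62 to 0.11 for Cebpd and -0.48 to 0.050 for Cebpg. At 72 h it gave -0.36 to 0.46 for Cebpa, at 96 h -0.18 to 1.18 for Cebpa, -0.42 to 0.77 for Cebpb and -0.21 to 0.38 for Cebpg, and over PHx -0.51 to 0.34 for Cebpb and -0.71 to 0.028 for Cebpd. The other 7 ranges kept their sign but were also wide, such as 0.42 to 1.14 for Cebpa at 48 h, 0.030 to 0.81 for Cebpa over PHx and -0.92 to -0.051 for Cebpb at 72 h. Normal scores, which are on another scale, gave 0.27 for Cebpa at 48 h.

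In this balanced design the replicate block cannot change a difference, only its error. With it, 0 C/EBP regions and 0 of all regions were called (Cebpa at 48 h 0.81, adjusted p = 0.666 in limma).

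Regions gained or lost are few and moved with the settings. Without 1 library, gained regions ranged from 1 to 5 at 48 h, 1 to 3 at 72 h and 0 to 2 at 96 h, and lost regions from 2 to 5, 2 to 6 and 4 to 8, since 1 library then decides presence. Over all regions the same settings gave 2.23% to 7.89% gained and 2.42% to 8.75% lost at the 3 times. With 25000 intervals 1 was lost at 48 h (4.17% of all regions of that setting) and 0 were gained and 0 lost at 72 h (3.29% and 3.33%). With all intervals 0 were gained at 48 h (1.06%), 2 gained and 1 lost at 72 h (2.81% and 0.706%) and 1 gained at 96 h (1.56%). With absence from the full lists there were 0 gained and 0 lost at 48 and 72 h (0.0095% to 0.128% of all regions) and 1 lost at 96 h.

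Without 1 library, C/EBP regions with no overlap numbered 7 to 17 lower and 10 to 23 higher at 48 h, 14 to 32 and 4 to 12 at 72 h, 13 to 27 and 3 to 18 at 96 h, and 2 to 11 and 1 to 5 over PHx, fewer libraries overlapping less. Over all regions these shares were 20.3% to 36.6% and 20.2% to 37.2% at 48 h, 21.3% to 39.8% and 18.3% to 33.5% at 72 h, 17.5% to 37.2% and 15.5% to 35.6% at 96 h, and 5.81% to 17.7% and 4.92% to 14.4% over PHx. These alternatives, those of the list medians, the medians over promoters kept both at 0 h and after PHx, and the values of single regions without a library were chosen after seeing the data. The list medians over PHx ranged from -0.49 to 0.04 for acute-phase genes, -0.63 to -0.17 for metabolic genes and -0.22 to 0.11 for bZIP relatives.

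The Cebpa distal count stayed lower after PHx in every alternative (-3.2 to -4 without 1 library). Those of Cebpb turned to -1.5 with 25000 intervals, -2 in 100 kb windows and -0.33 with 500 bp promoters, and ranged from -0.833 to 1.17 without 1 library. Those of Cebpe turned to 2.67 with all intervals and 0.33 in 100 kb windows, and that of Cebpg to 2 with all intervals. In 400 bp windows 11 regions held a C/EBP match in place of 6, 8 an AP-1 match in place of 5 and 8 a STAT match in place of 3, as a longer window holds more matches. With 2 libraries per time the SE of a promoter difference was 0.26 to 0.50 on the log2 scale, and without read counts the depth behind it is unknown.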
